A study of Rosa rugosa with 4 samples.

Results

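Heat shock proteins and chaperones of Rosa rugosa, a shrub rose with scented petals, were followed in RNA-seq profiles of petals and leaves. The members are assembled transcripts (contigs) whose first database hit was a strawberry, rose, Prunus, apple or pear sequence (Fragaria, Rosa, Prunus, Malus or Pyrus, together called Rosaceae here) and named a heat shock protein, chaperone, DnaJ protein, luminal-binding protein, peptidyl-prolyl isomerase, calnexin, calreticulin or disulfide-isomerase. Heat stress transcription factors were left out. The rule found 159 contigs among the 65535 of the table and among the 14514 with a Rosaceae hit. The hit was from Fragaria for 131 members, Prunus for 13, Malus for 7, Pyrus for 6 and Rosa for 2. No genome sequence was used, so the contigs have no coordinates.

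The study compared petals, in the libraries petal 1 and petal 2, with leaves, in the libraries leaf 1 and leaf 2. All 4 came from total RNA of untreated greenhouse plants after removal of ribosomal RNA, and no genotype, age or flower stage was given. Whether petal 1 and petal 2, or leaf 1 and leaf 2, are from different plants is not in the labels. The p-values below therefore measure only the spread between these libraries, which the test pooled in part or wholly over contigs. In bulk tissue, fewer cells of a type and less RNA per cell cannot be told apart.

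Chaperones bind unfolded or partly folded proteins and help them fold, move between compartments or avoid clumping. HSP70 proteins bind and release short stretches of client proteins with energy from ATP, DnaJ proteins deliver clients and stimulate the HSP70 ATPase, and HSP90 works on later folding steps of selected clients such as kinases and receptors. Small heat shock proteins hold unfolded proteins without ATP, chaperonins enclose a protein in a barrel, and peptidyl-prolyl and disulfide isomerases speed up steps that limit folding. Heat induces many of these genes in plants, while the cognate HSP70 genes are also active in unstressed tissue.

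Values are FPKM (fragments scaled to contig length and to all mapped fragments) as deposited, and the fragments behind them were read back from the steps of the values. Depth was about 18600000 and 23800000 mapped fragments in petal 1 and petal 2, against 26600000 and 20400000 in leaf 1 and leaf 2. The table holds only part of the assembly, and its Rosaceae-hit contigs took between 0.576% and 0.953% of the mapped fragments of a library. Petal 2 stood apart from the other libraries. Rosaceae-hit contigs held 79.4% of the table's fragments in petal 1 and 19.7% in petal 2, against 77.0% in leaf 1 and 77.2% in leaf 2. In petal 2, contigs with a hit to the grey mould fungus and its relatives held 27.9% of the fragments. These are shares of the table's fragments, while an FPKM is scaled to all mapped fragments, most of which lie outside the table. Of the mapped fragments, Rosaceae-hit contigs took 0.953% in petal 1 and 0.576% in petal 2, against 0.674% in leaf 1 and 0.613% in leaf 2. How much RNA of other organisms was in the whole pool of petal 2 is not known. Sums over members are also given per 1000000 fragments of Rosaceae-hit contigs. The tissue labels were checked against 2 marker lists, in fragments per 1000000 fragments of Rosaceae-hit contigs. The 63 contigs of the petal list, of which 34 were above 0, summed to 21549 and 5417 in the petal libraries, against 584 and 1279 in the leaf libraries. Most of the petal sums was NUDX1, an enzyme of rose scent, with 21279 and 3576 in the petal libraries, against 61.3 and 8.09 in the leaf libraries. No other word of the petal list had both petal libraries above both leaf libraries. Dihydroflavonol contigs had the reverse order, with 5.63 and 0 in the petal libraries, against 27.8 and 39.9 in the leaf libraries. Germacrene D synthase contigs had 27.9 and 358 in the petal libraries, against 139 and 775 in the leaf libraries. The contig named chalcone synthase was at 0 in all 4 libraries. The 17 contigs of the leaf list, of which 13 were above 0, summed to 771 and 715 in the petal libraries, against 131166 and 103391 in the leaf libraries. Nearly all of the leaf sums came from 2 glycine cleavage contigs of photorespiration, while the 10 chlorophyll a-b binding contigs summed to 563 and 358 in the petal libraries, against 284 and 319 in the leaf libraries.

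Few fragments lay behind the chaperone contigs. Their length was 174 to 965 nt with a median of 268 nt, shorter than the coding sequence of an HSP70 or HSP90, so that contigs are pieces of genes. The 159 contigs named 99 hit genes, of which 37 were hit by more than 1 contig and together held 97 contigs. Of the members 85 (53.5%) were above 0 FPKM in at least 1 library, close to 54.2% of the other Rosaceae-hit contigs. By library, 42 members were above 0 in petal 1 and 37 in petal 2, against 46 in leaf 1 and 43 in leaf 2. Only 10 members (6.29%) reached 20 fragments over the 4 libraries, beside 7.83% of the other Rosaceae-hit contigs. The other 74 of the 159 members were listed at 0 in every library.

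Detection followed contig length. None of the 18 members under 200 nt was above 0, and the shortest contig of the whole table with a value above 0 was between 197 and 202 nt in each library. The share above 0 was 30.6% from 200 to under 250 nt, 51.7% from there to under 300 nt, 85.3% from there to under 400 nt and 89.7% on longer members. The other Rosaceae-hit contigs gave 26.4%, 58.1%, 82.5% and 95.8% in the same classes. A listed 0 on a short contig therefore does not show that the gene was silent. Short contigs also get a high FPKM from few fragments. On TR18377|c0_g1_i1, of 215 nt, 1 fragment was worth 21.8 FPKM in petal 1, and on TR116509|c1_g1_i1, of 646 nt, it was worth 0.151 FPKM in petal 1.

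**Figure D1:**
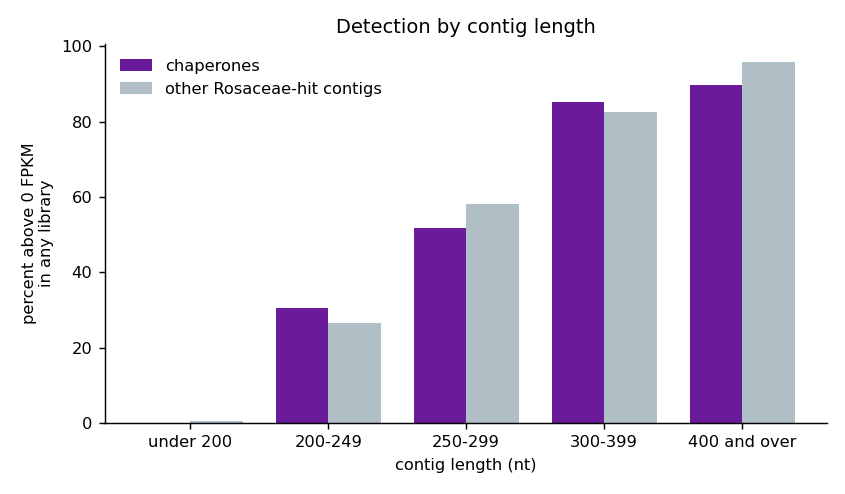
Percent of contigs above 0 FPKM in at least 1 library (y axis) in classes of contig length in nt (x axis), for the 159 chaperone contigs (purple) and the other 14355 Rosaceae-hit contigs (grey). Both rise with length, to 89.7% of the chaperone contigs and 95.8% of the others in the longest class.

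Summed over all members, the chaperones took 0.119% of the Rosaceae fragments in petal 1 (211 fragments, 95% Wilson interval 0.104% to 0.136%) and 0.213% in petal 2 (292 fragments, 0.190% to 0.239%), against 0.155% in leaf 1 (279 fragments, 0.138% to 0.175%) and 0.149% in leaf 2 (187 fragments, 0.129% to 0.172%). The petal libraries were the lowest and the highest of the 4, so the tissues overlapped. These intervals cover counting error only. With 2 libraries per tissue, the smallest p-value an exact two-sided permutation test can give is 0.33, so no such test was run on these sums.

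HSP70 contigs carried the largest part, with 44.3% of all member fragments. They summed, in fragments per 1000000 Rosaceae fragments, to 569 in petal 1 and 1416 in petal 2, against 507 in leaf 1 and 343 in leaf 2. Both petal libraries were above both leaf libraries, by little in petal 1 and by much in petal 2. The scale itself is moved by a few abundant contigs. Of each 1000000 Rosaceae fragments, 2 glycine cleavage contigs held 130865 in leaf 1 and 103009 in leaf 2. NUDX1 held 21279 in petal 1 and 3576 in petal 2. The small gap between petal 1 and leaf 1 is within this shift. The order of the tissues rested on the HSC70-2-like contig TR124755|c0_g1_i1, without which petal 1 fell below leaf 1. The HSC70-like contig TR11982|c0_g1_i1 added mainly to petal 2, with 11.3 and 431 in the petal libraries, against 11.2 and 7.86 in the leaf libraries. Both contigs are described below. Without them the other 35 HSP70 contigs summed to 321 and 241 in the petal libraries, against 407 and 184 in the leaf libraries, and the tissues overlapped.

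**Figure D2:**
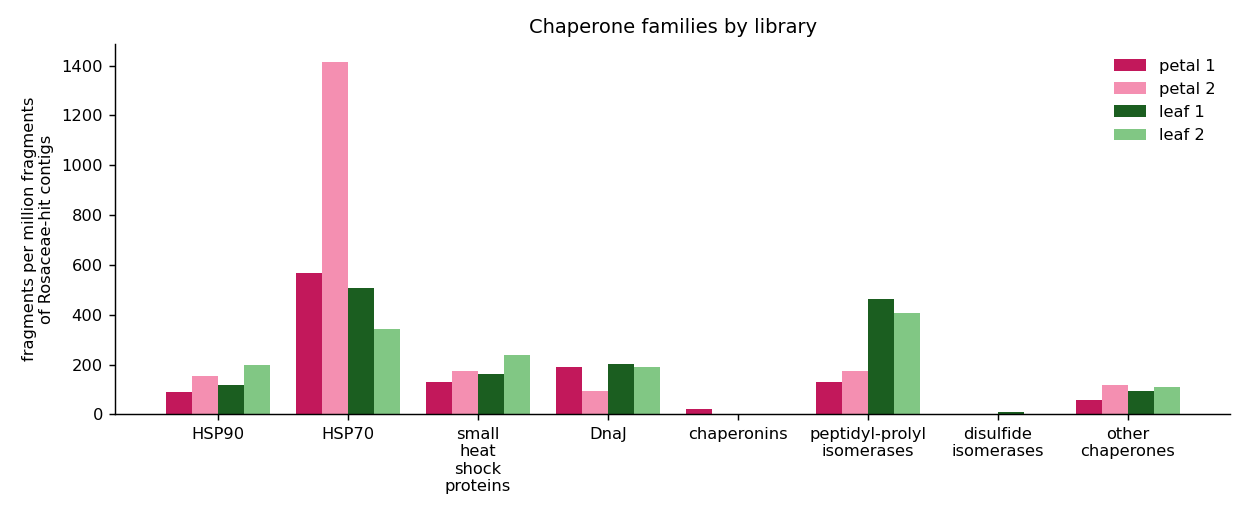
Fragments per 1000000 fragments of Rosaceae-hit contigs (y axis) summed over the contigs of each chaperone family (x axis), with a bar for each library (petal 1, petal 2, leaf 1, leaf 2). HSP70 in petal 2 is the highest bar at 1416, and the peptidyl-prolyl isomerases are at 129 and 175 in the petal libraries, below 462 and 407 in the leaf libraries.

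The peptidyl-prolyl isomerases had the opposite order. Their 36 contigs, 17 of them above 0, summed to 129 and 175 fragments per 1000000 Rosaceae fragments in the petal libraries, against 462 and 407 in the leaf libraries. In raw fragments these were 23 and 24 in the petal libraries, against 83 and 51 in the leaf libraries. Without the most abundant contig of the family, FKBP16-4-like, the sums were 118 and 161 in the petal libraries, against 228 and 367 in the leaf libraries, which still did not overlap. In the other families with more than a few fragments the tissues overlapped. The 8 HSP90 contigs summed to 90.1 and 153 in the petal libraries, against 117 and 199 in the leaf libraries. The 5 small heat shock protein contigs summed to 130 and 175 in the petal libraries, against 162 and 240 in the leaf libraries. The 49 DnaJ contigs summed to 192 and 94.8 in the petal libraries, against 201 and 191 in the leaf libraries. The 15 contigs of other chaperones summed to 56.3 and 117 in the petal libraries, against 94.7 and 112 in the leaf libraries.

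No member passed the test between tissues. The limma test on log2(FPKM + 1) over the 5114 contigs with at least 20 fragments held 10 members and called 0 of them at a Benjamini-Hochberg adjusted p under 0.05. It called 0 of all contigs (0%), while 297 (5.81%) had an unadjusted p under 0.05, none of them a member, and limma-voom on the fragments also called 0. The same test over the contigs with a mean and SD of at least 10 FPKM, the filter that the study set before clustering, held 5 members, of which 0 passed and 0 had an unadjusted p under 0.05. Of its 2157 contigs 24 (1.11%) passed, 14 with a higher petal level (0.649%) and 10 with a higher leaf level (0.464%). An unadjusted p under 0.05 was found for 102 of them (4.73%). With 1 library left out, between 0% and 60.1% of contigs passed in the first fit (8.55% without petal 2) and between 14.1% and 37.6% in the second. In the first fit the median log2 difference, petal minus leaf, was 0.09 over the members, 0.10 over the Rosaceae-hit contigs and 0.80 over all contigs. Of the 10 members 2 had both petal values above both leaf values (27.2% of Rosaceae-hit contigs did) and 1 had both leaf values above both petal values (22.2% did).

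**Figure D3:**
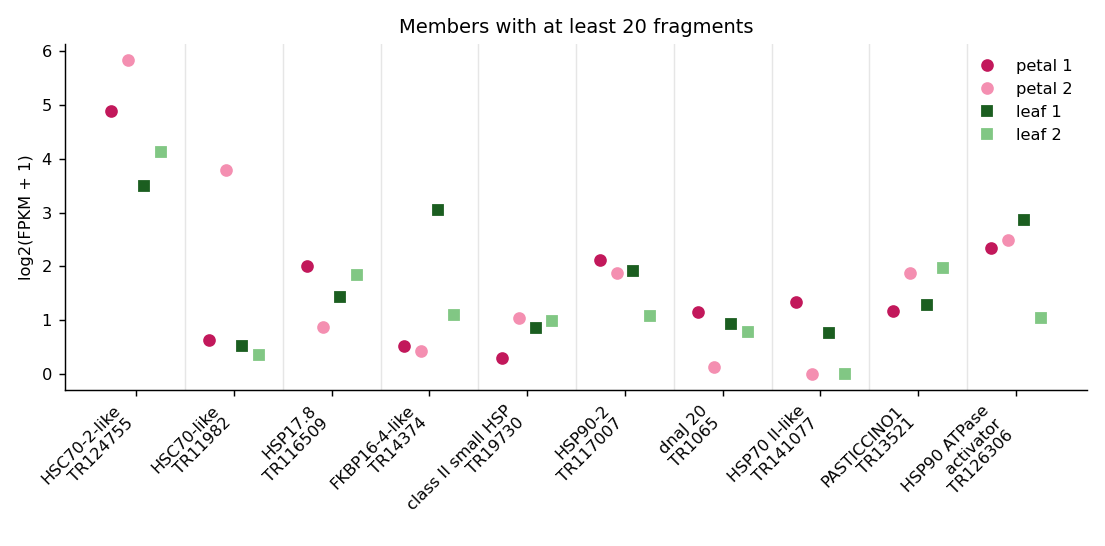
Log2(FPKM + 1) (y axis) of the 10 chaperone contigs with at least 20 fragments (x axis, by falling number of fragments), with circles for petal 1 and petal 2 and squares for leaf 1 and leaf 2. Only HSC70-2-like and HSC70-like have both petal points above both leaf points, and only FKBP16-4-like has both leaf points above both petal points.

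HSP90 proteins were represented by 8 contigs, of which 5 were above 0. The contig with the most fragments, TR117007|c0_g1_i1, hit HSP90-2 of strawberry, a cytosolic HSP90. The match was weak, with an E-value of 1e-05 beside a median of 3e-22 over the members, so the name is uncertain. This contig had 3.36 and 2.67 FPKM in the petal libraries, against 2.78 and 1.12 FPKM in the leaf libraries, from 33 fragments over 449 nt. The tissues overlapped, and the log2 difference was 0.50 with an SE of 0.70 (limma adjusted p = 0.606). A pair of contigs of 1 assembly component hit the HSP90-2 gene of pear, and both were higher in both leaf libraries. TR15489|c0_g2_i1 had 7.17 and 2.95 FPKM in the petal libraries, against 14.62 and 7.26 FPKM in the leaf libraries. TR15489|c0_g1_i1 had 3.58 and 4.43 FPKM in the petal libraries, against 5.48 and 12.12 FPKM in the leaf libraries. Each held under 20 fragments and was not tested, and possible copies of 1 gene may share reads. The HSP83-like contig TR10025|c0_g1_i1 had 0 and 0.66 FPKM in the petal libraries, against 0 and 1.81 FPKM in the leaf libraries, so that it was above 0 only in the libraries numbered 2. The activator of the HSP90 ATPase, a co-chaperone that speeds up the HSP90 cycle, had 4.09 and 4.62 FPKM in the petal libraries, against 6.27 and 1.06 FPKM in the leaf libraries (TR126306|c0_g1_i1, 21 fragments). Its match was weak too, with an E-value of 8e-06. Leaf 1 and leaf 2 lay on either side of both petal values, and the log2 difference was 0.47 with an SE of 0.92 (limma adjusted p = 0.719).

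HSP70 was the family with the most fragments, on 37 contigs from heat shock cognate, mitochondrial, chloroplast and luminal-binding genes, of which 27 were above 0. The contig with the most fragments of all members, TR124755|c0_g1_i1, hit the strawberry gene HSC70-2-like, a cognate HSP70 of the cytosol. It had 28.67 and 56 FPKM in the petal libraries, against 10.2 and 16.38 FPKM in the leaf libraries, from 179 fragments over 364 nt. Both petal libraries were above both leaf libraries. The mean was 42.3 ± 19.3 FPKM in petals and 13.3 ± 4.37 FPKM in leaves (SD, n = 2 each), a ratio of 3.19. The log2 difference of 1.56 had an SE of 0.68 and did not pass (limma adjusted p = 0.470). The contig had 237 and 744 fragments per 1000000 Rosaceae fragments in the petal libraries, against 89.2 and 152 in the leaf libraries, in the same order. Without petal 2 the log2 difference was 1.09.

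The same strawberry gene was hit by 3 further contigs of 1 assembly component, all under 300 nt. TR18377|c0_g2_i1 had 10.06 and 21 FPKM in the petal libraries and was at 0 in both leaf libraries, from 14 fragments. This is 5.19-fold higher in petals when the leaf pair is set to a floor of 3 fragments, a fold that leaves out the counting error of the petal fragments. TR18377|c0_g1_i1 had 152.31 FPKM in petal 1, the highest value of any member, and was at 0 in petal 2 and both leaf libraries. That value stood for 7 fragments on 215 nt. TR18377|c0_g5_i1 had 0 and 47.65 FPKM in the petal libraries, against 0 and 62.01 FPKM in the leaf libraries, from 3 fragments in each of the libraries numbered 2. The 4 contigs together held 53 and 115 fragments in the petal libraries, against 16 and 22 in the leaf libraries. Assembled copies of 1 gene share reads, and the counter may have split them among copies, so the sum is safer than the single contigs.

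TR11982|c0_g1_i1, which hit another cognate HSP70 gene of strawberry, was a petal 2 contig. It had 0.55 and 12.79 FPKM in the petal libraries, against 0.44 and 0.29 FPKM in the leaf libraries, and petal 2 held 59 of its 64 fragments (92.2%). Petal 1 was above leaf 1 by less than the worth of 1 fragment, 0.273 FPKM in petal 1 at this length of 486 nt. The log2 difference was 1.76 with an SE of 1.25 (limma adjusted p = 0.470). Without petal 1 it was 3.34 (limma adjusted p = 0.0355, with 1 petal library assumed to vary like the leaf libraries), in a fit that called 3073 of all 5114 contigs (60.1%), and without petal 2 it was 0.19. Petal 2 was also the library with the most fragments of grey mould contigs, and the part of these in the value was not tested.

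A group of HSP70 contigs was split by library number instead of tissue. HSP70 II-like (TR141077|c0_g1_i1, 851 nt, 26 fragments) had 1.53 and 0 FPKM in the petal libraries, against 0.7 and 0 FPKM in the leaf libraries. TR1210|c1_g1_i1 had 0.61 and 0 FPKM in the petal libraries, against 0.74 and 0 FPKM in the leaf libraries. TR140827|c0_g1_i1 had 1.18 and 0 FPKM in the petal libraries, against 1.52 and 0 FPKM in the leaf libraries. These 3 long contigs from 3 hit genes were above 0 in petal 1 and leaf 1 and at 0 in petal 2 and leaf 2. For HSP70 II-like the log2 difference was 0.29 with an SE of 0.72 (limma adjusted p = 0.782). The luminal-binding proteins, the HSP70s of the endoplasmic reticulum, were seen in 2 contigs with 7 fragments in all, and the stromal HSP70 of the chloroplast in 2 contigs with 1 fragment each.

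Small heat shock proteins, which are mostly induced by heat, had 5 contigs, of which 2 were above 0, both with at least 20 fragments. Their sums, given above, were higher than those of HSP90 in each library. HSP17.8 of Rosa chinensis, hit by TR116509|c1_g1_i1 over 646 nt, was the best covered one. It had 3.02 and 0.83 FPKM in the petal libraries, against 1.7 and 2.57 FPKM in the leaf libraries, from 59 fragments. The petal values lay outside the leaf values on both sides, and the log2 difference was -0.19 with an SE of 0.74 (limma adjusted p = 0.858). Its direction turned to 0.37 without petal 2 and to 0.01 without leaf 2. The 17.1 kDa class II protein (TR19730|c0_g2_i1, 965 nt, the longest member) had 0.24 and 1.06 FPKM in the petal libraries, against 0.81 and 0.99 FPKM in the leaf libraries. The tissues overlapped again, with a log2 difference of -0.25 and an SE of 0.58 (limma adjusted p = 0.766). The other 3 contigs of the family were at 0.

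DnaJ proteins were the family with the most contigs, 49, of which 23 were above 0 and 1 reached 20 fragments. That contig, TR1065|c0_g1_i1, hit dnaJ 20 of the chloroplast. It had 1.24 and 0.1 FPKM in the petal libraries, against 0.92 and 0.73 FPKM in the leaf libraries, from 27 fragments over 723 nt. Petal 2 held 1 fragment and the other libraries between 6 and 10. The log2 difference was -0.22 with an SE of 0.63 (limma adjusted p = 0.813), and it turned to 0.30 without petal 2. The gene named dnaJ homolog subfamily B member 3 was hit by 6 contigs of 1 component, 4 of them above 0 and only in leaf libraries, with 5 fragments in leaf 1 and 4 in leaf 2. Its contig TR11847|c0_g6_i1 was at 0 in both petal libraries and had 31.22 and 19.34 FPKM in the leaf libraries, from 6 fragments. This contig was among the 5 members in the fit of contigs with a mean and SD of at least 10 FPKM, where its log2 difference was -4.68 with an SE of 2.64 (limma adjusted p = 0.515). The contig took this SE from contigs of similar level and not from the spread of its own values. It passed without leaf 1 (log2 difference -4.35, limma adjusted p = 0.0250) and without leaf 2 (log2 difference -5.01, limma adjusted p = 0.0429), in fits with 1 leaf library that called 21.5% and 18.5% of all contigs, against 1.11% with all 4 libraries. ERDJ3B, a DnaJ protein of the endoplasmic reticulum, was seen in the petal libraries only, with 1.12 and 2.72 FPKM from 4 fragments (TR135481|c0_g1_i1).

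Among the peptidyl-prolyl isomerases, FKBP16-4-like of the chloroplast, known from Arabidopsis as a protein of the thylakoid lumen, had the largest difference in the direction of leaves among the members with at least 20 fragments. TR14374|c0_g1_i1 had 0.44 and 0.35 FPKM in the petal libraries, against 7.24 and 1.15 FPKM in the leaf libraries, from 51 fragments over 533 nt. Both leaf libraries were above both petal libraries, but leaf 1 alone held 42 of the fragments (82.4%). The log2 difference was -1.59 with an SE of 0.89 (limma adjusted p = 0.470), and without leaf 1 it was -0.62. PASTICCINO1, an FKBP-like protein needed for normal cell division in Arabidopsis, had 1.25 and 2.67 FPKM in the petal libraries, against 1.44 and 2.91 FPKM in the leaf libraries (TR13521|c0_g1_i1, 21 fragments). Here the libraries of 1 number were alike, and the log2 difference between tissues was -0.10 with an SE of 0.71 (limma adjusted p = 0.924).

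FKBP12-like was the isomerase gene seen only in leaves with the most fragments, and it and the next genes are named after their values were seen. TR102462|c0_g1_i1 was at 0 in both petal libraries and had 0.89 and 3.59 FPKM in the leaf libraries. TR117975|c0_g1_i1, which hit the same strawberry gene, was at 0 in both petal libraries and had 2.48 and 3.36 FPKM in the leaf libraries. Together they held 0 fragments in the petal libraries, against 8 and 16 in the leaf libraries. This is 7.20-fold higher in leaves if the petal pair is given 3 fragments as a floor. The cyclophilin CYP21-1 (TR128422|c0_g1_i1) was at 0 in both petal libraries and had 0.51 and 2.25 FPKM in the leaf libraries, from 13 fragments. This is 3.91-fold higher in leaves against the same floor. Both folds leave out the counting error of the leaf fragments. FKBP20-1 (TR146948|c0_g1_i1) had the reverse pattern, with 4.61 and 1.88 FPKM in the petal libraries and 0 in both leaf libraries, from 6 fragments. These contigs held too few fragments for the test.

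Some contigs of FKBP62 and FKBP65, isomerases known from heat tolerance in Arabidopsis, were split by library number. The FKBP62 contig TR127492|c0_g1_i1 had 1.29 and 0 FPKM in the petal libraries, against 1.18 and 0 FPKM in the leaf libraries. A second contig of the same hit gene, TR107988|c0_g1_i1, had 0 and 0.82 FPKM in the petal libraries, against 0 and 0.53 FPKM in the leaf libraries. These 2 contigs of 1 gene were thus seen in opposite library numbers. Another contig of the gene, TR11328|c0_g1_i1 with 5 fragments, had 4.5 and 1.87 FPKM in the petal libraries, against 4.61 and 0 FPKM in the leaf libraries. Summed over its contigs, the FKBP62 gene held 11 and 7 fragments in the petal libraries, against 13 and 3 in the leaf libraries. The gene as a whole was thus seen in every library. The FKBP65-like contig TR15525|c0_g1_i1 had 0.4 and 0 FPKM in the petal libraries, against 1.53 and 0 FPKM in the leaf libraries.

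Chaperonins, disulfide isomerases and calreticulin were almost unseen. Of 5 chaperonin contigs 1 was above 0, the mitochondrial CPN60-2 contig TR110361|c0_g1_i1, with 30.66 FPKM in petal 1 from 4 fragments on 243 nt and 0 in petal 2 and both leaf libraries. Of 3 disulfide isomerase contigs 1 was above 0, the disulfide-isomerase A6 contig TR19235|c0_g1_i1, at 0 in both petal libraries, with 17.14 FPKM in leaf 1 from 2 fragments and 0 in leaf 2. The calreticulin contig was at 0 in all 4 libraries. Differences between tissues were not detectable at this depth in these families.

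Among the 15 contigs of other chaperones, 9 were above 0. BCS1, known from yeast as an assembly factor of the mitochondrial respiratory chain, was hit by several contigs with different patterns. BCS1-like (TR114038|c0_g1_i1, 8 fragments) had 0 and 1.02 FPKM in the petal libraries, against 0 and 1.43 FPKM in the leaf libraries. BCS1-B (TR142040|c0_g1_i1, 5 fragments) was at 0 in both petal libraries and had 3.18 and 6.35 FPKM in the leaf libraries. The proteasome assembly chaperone 2-like contig TR145830|c0_g1_i1 was again above 0 only in the libraries numbered 2, with 0 and 0.52 FPKM in the petal libraries, against 0 and 1.36 FPKM in the leaf libraries. ClpB1-like, which in Arabidopsis dissolves protein aggregates after heat, was seen only in petal 1, with 13.81 FPKM from 3 fragments (TR134104|c0_g1_i1). Members named for the chloroplast, 17 contigs from several families, summed to 78.8 and 44.0 fragments per 1000000 Rosaceae fragments in the petal libraries, against 295 and 143 in the leaf libraries. In raw fragments these were 14 and 6 in the petal libraries, against 53 and 18 in the leaf libraries. The FKBP16-4-like contig alone held 2 and 2 of them in the petal libraries, against 42 and 5 in the leaf libraries. Without that contig petal 1 was above leaf 1 and the tissues overlapped. The 15 members named for mitochondria summed to 39.4 and 72.9 in the petal libraries, against 50.1 and 79.8 in the leaf libraries, where the tissues overlapped.

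The split by library number was a feature of many members. Of the 42 members with at least 5 fragments, 13 were above 0 in all 4 libraries. A further 12 (28.6%) were above 0 in exactly 2 libraries of the same number, 6 in petal 1 and leaf 1 and 6 in petal 2 and leaf 2. Exactly 2 libraries of the same tissue were above 0 for 9 (21.4%), 3 of them in the petal pair and 6 in the leaf pair. Only 1 member, the pear-hit HSP70 contig TR18632|c0_g1_i1 with 0.69 FPKM in petal 2 and 2.56 FPKM in leaf 1, was above 0 in 2 libraries that shared neither tissue nor number. Among the 3492 other Rosaceae-hit contigs with at least 5 fragments these shares were 17.6%, 14.9% and 3.49%, in the same order. The labels do not say what libraries of 1 number share, and whether a plant, a day or a batch lies behind it was not tested. Of the 85 members above 0, 8 had both petal values above both leaf values (9.41%, against 12.3% of Rosaceae-hit contigs) and 13 the reverse (15.3%, against 10.7%).

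**Figure D4:**
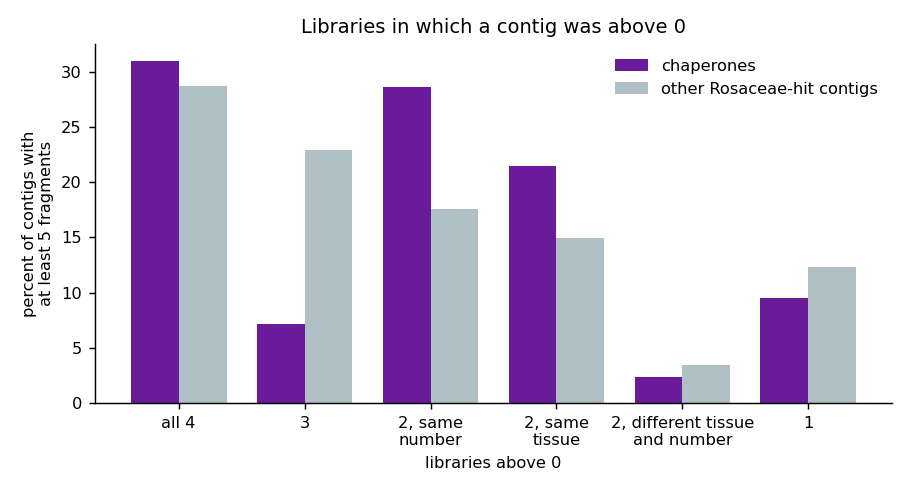
Percent of contigs with at least 5 fragments (y axis) by the libraries in which they were above 0 (x axis), for 42 chaperone contigs (purple) and 3492 other Rosaceae-hit contigs (grey). Contigs above 0 in exactly 2 libraries of the same number make 28.6% of the chaperone contigs and 17.6% of the others, and those in 2 libraries of the same tissue 21.4% and 14.9%.

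Other genes of the pathway were thinner still. Heat stress transcription factors, which switch on heat shock genes, together with co-chaperones and proteases of the same system (the HSP70-HSP90 organizing protein, prefoldin, GrpE, SGT1, the Clp protease and a multiprotein-bridging factor) gave 30 Rosaceae-hit contigs, of which 12 were above 0 and 0 reached the filter of 20 fragments, so none was tested. Their fragments summed to 13 and 10 in the petal libraries, against 15 and 26 in the leaf libraries. The A-2d-like heat stress transcription factor, hit by TR19349|c0_g1_i1, had 0 and 0.57 FPKM in the petal libraries, against 1.52 and 2.3 FPKM in the leaf libraries. Both leaf libraries were above both petal libraries for this contig. The B-2a-like factor (TR16997|c0_g1_i1) had the reverse order, with 8.46 and 21.78 FPKM in the petal libraries and 0 in both leaf libraries, from 4 fragments. Of the 3 contigs named for these factors, only these 2 were above 0. Together they held 1 and 6 fragments in the petal libraries, against 8 and 9 in the leaf libraries. This is too little to give a direction for the factors.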

How the data were processed

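The authors made 4 Illumina libraries from Rosa rugosa and a joint Trinity assembly, matched its contigs to NCBI databases, and used RSEM with bowtie to estimate abundance. The deposited values are FPKM per contig and library with 2 decimals. Versions of RSEM and bowtie were not stated there. The table analysed here holds 65535 contigs, part of the assembly, and the rest was not analysed here.

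Fragments were read back per library from the FPKM steps by contig length, in Python 3.11.15 with scipy 1.17.1. Between 98.7% and 98.8% of the values per library came within 0.1 of a whole number of fragments, judged on contigs shorter than 500 nt, from 0.3 FPKM upwards and up to 10 fragments. Since FPKM are not counts, petals and leaves were compared with limma 3.58.1 in R 4.3.3 on log2(FPKM + 1), with a trend in the prior, tissue as the only term, two-sided, and Benjamini-Hochberg adjustment over all contigs of a fit (threshold 0.05). A fold on this scale understates changes of low contigs. One fit used contigs with at least 20 fragments over the 4 libraries, the other those with a mean and SD of at least 10 FPKM, the filter that the study set before clustering. The prior had 2.13 degrees of freedom in the former and infinite ones in the latter. SEs and p-values of the latter with all 4 libraries therefore came wholly from the trend over contigs, not from a contig's own spread. Wilson intervals came from statsmodels 0.14.6. The read-back of fragments and the limma fit were also run on simulated data. For the limma fit, simulated libraries of a tissue differed only by depth and random counts. They held no library like petal 2 and no deviation shared by libraries of 1 number. That run therefore does not show how the limma fits behave on these data.

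Members were put in families by the hit's name. Named contigs are those called in a fit, those with at least 50 fragments and the one with the most fragments in each family. All others were chosen after their values were seen, among them contigs with at least 20 fragments, pairs of 1 gene and contigs split by library number. The members, families, marker lists and pathway phrases were chosen with earlier results of these data known. Contigs of 1 component or 1 hit gene may be copies or pieces of 1 gene. Sums by compartment and by library set were chosen after seeing the data. Alternatives were pseudocounts of 0.1 and 10, other scalings, filters and priors, limma-voom, a block on the library number and leaving out each library. No contig sequences were used here, so none are shown.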

Additional observations from a re-analysis of the deposited data

Results flagged for a closer look

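Chaperone words also stood in the first hit of 121 contigs outside the Rosaceae, of which 81 were above 0, and these were not part of the comparison. They drew 109 fragments in petal 1 and 1980 in petal 2, against 161 in leaf 1 and 73 in leaf 2, all above the 3 fragments that a count of 0 allows. In petal 2 a calnexin contig with a hit to the grey mould fungus (TR137422|c0_g1_i1, 2116 nt) held 1109 of these fragments, at 25.6 FPKM. Contigs with an aphid hit held 83 and 470 chaperone fragments in the petal libraries, against 3 and 6 in the leaf libraries. Contigs with a hit to Marssonina, a fungus of leaf spot diseases, had 0 and 17 in the petal libraries, against 147 and 62 in the leaf libraries. Contigs with a horseshoe crab hit, a class added after seeing the data, held 235 in petal 2 and 0 in petal 1 and both leaf libraries. A first hit alone does not prove which organism a contig came from.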

How the results depend on the processing

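The limma fit over contigs with at least 20 fragments called 0 of all contigs and 0 members. All contigs called came to 140 with the replicate block, 1 over Rosaceae-hit contigs only, 1 with at least 50 fragments and 9 among contigs averaging 1 FPKM or more, and to between 0 and 3073 (60.1% of contigs, without petal 1) without 1 library each, with between 0 and 1 member called, HSC70-like without petal 1. The fit over contigs with a mean and SD of at least 10 FPKM called 24, and 0 with no trend in the prior, 51 with the replicate block, 3 with no filter on low values and between 305 and 810 (14.1% and 37.6% of contigs) without 1 library each, with between 0 and 2 members called. The members were dnaJ B member 3 and HSC70-1-like (TR110749|c0_g1_i1, -5.71, adjusted p = 0.0250) without leaf 1, dnaJ B member 3 without leaf 2, and the 215 nt HSC70-2-like contig (7.26, adjusted p = 0.0167) without petal 2. Those fits take the lone library of a tissue to vary like the others, and the cause was not tested.

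The labels do not pair libraries of 1 number. Differences of library 1 minus library 2 correlated between tissues across contigs (r = 0.50 over 1134 Rosaceae-hit contigs, 0.26 over 85 members, genes not being independent replicates), and the replicate block left 0 members called.

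The median log2 difference of the members was 0.68 with at least 50 fragments (4 members), -0.28 over the 50 members that average 1 FPKM or more, and between -0.04 and 0.34 without 1 library each. Of those 50 members, 4 had both petal values on top and 10 both leaf values. Among the 10 members with at least 20 fragments, 2 were higher in petals and 1 in leaves, beside 27.2% and 22.2% of Rosaceae-hit contigs. Leaving out 1 library each gave between 2 and 6 higher in petals and between 2 and 3 higher in leaves. Values separate more easily with 1 library in a tissue. The share over all contigs was not counted for the 50 members or without 1 library, so those counts show no direction of the members. Without 1 library each the log2 difference lay between -0.73 and 0.30 for dnaJ 20 (above 0 without petal 2), between -0.76 and 0.37 for HSP17.8 (0.37 without petal 2, 0.01 without leaf 2) and between -0.44 and 1.38 for the activator of the HSP90 ATPase (-0.44 without leaf 2). All other alternatives run kept the direction of the 7 named contigs with at least 20 fragments. The named chaperonin and disulfide isomerase contigs, with 4 and 2 fragments, were in neither fit, and their log2 differences were not recomputed.

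With 10 members at 20 fragments or more and 2 libraries per tissue, no member passed in either fit with all 4 libraries. Most members held too few fragments to be tested, and nothing is known of members outside the table.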
